A study of Rattus norvegicus with 6 samples.

Results

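Irx1, Irx2, Etv1, Meis2 and Id4, transcription factors looked at here as genes of glucagon (alpha) and pancreatic polypeptide (PP) cells, were followed through the rat pancreas. They are 5 of the 32883 genes in the count matrices. The genes were taken by name, with earlier results of these data known, and their levels were read in alpha, PP and beta cells. Single cells came from male Wistar rats in 3 groups of 2. Young rats were 2 months old and had eaten a normal diet, old rats had been kept on the normal diet until an age of 20 months, and HFHF-old rats had eaten a high-fat high-fructose (HFHF) diet from 2 to 20 months of age. The pancreas was digested with collagenase P and enriched for islets on a density gradient, and 1 library per rat was made from mRNA 3′ ends, so every rat is 1 replicate.

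Pancreatic islets hold several hormone cells. Alpha cells make glucagon (Gcg), beta cells make insulin (Ins1 and Ins2), PP cells make pancreatic polypeptide (Ppy, together with Pyy), and delta cells make somatostatin (Sst). Irx1 and Irx2 are Iroquois homeobox factors, a family that patterns embryonic tissues and whose members mark alpha cells among islet cells. Etv1 is an ETS-family activator. Meis2 is a homeobox factor that binds DNA together with PBX proteins. Id4 has no DNA-binding domain and holds basic helix-loop-helix factors off DNA by pairing with them.

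A cell was assigned to the hormone that made up at least 5% of its unique molecular identifiers (UMIs, 1 per captured mRNA molecule) and was the most abundant of the 4. Alpha cells numbered 550 and 597 in the young rats, 129 and 816 in the old rats and 30 in HFHF-old rat 1. PP cells numbered 134, 457, 82, 668 and 63 in the same order, and beta cells 178, 3329, 536, 1322 and 785. HFHF-old rat 2 gave 3 alpha cells, 0 PP cells and 5 beta cells and was left out of every islet level, so the HFHF-old group is 1 rat in islet cells. Delta cells reached 10 cells only in the young rats, with 24 and 11. The libraries held between 77387928 and 166875258 UMIs. Checked against markers, Pdx1, Nkx6-1 and Slc2a2 were highest by median in the beta class save for Pdx1, which delta cells held too. The beta class of HFHF-old rat 1 had a median of 768 UMIs per cell. Of the beta cells of young rat 2, 54.2% carried another hormone at 5% or more. In the 3 main classes, 171 of 9684 cells had a barcode sequence that also occurred in another library.

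The start regions of Irx1, Irx2 and Etv1 are shown because Irx1 and Irx2 shared a pattern over islet cells that Etv1 did not follow. Each is the 250 bases upstream of the gene's start in RefSeq on the rat build GRCr8, read on the gene's own strand. Capitals mark the single E-box (CANNTG, the site of basic helix-loop-helix factors), which 65.2% of 27457 rat promoters of the same length also hold. Irx1 is at chr1:33122872-33123121 on the plus strand, Irx2 at chr1:32494931-32495180 on the minus strand, and Etv1 at chr6:61317179-61317428 on the plus strand.
Irx1: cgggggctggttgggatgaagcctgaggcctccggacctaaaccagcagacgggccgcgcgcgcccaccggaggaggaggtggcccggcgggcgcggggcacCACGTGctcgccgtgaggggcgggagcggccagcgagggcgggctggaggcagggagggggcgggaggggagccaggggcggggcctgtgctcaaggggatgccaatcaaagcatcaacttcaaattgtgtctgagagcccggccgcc
Irx2: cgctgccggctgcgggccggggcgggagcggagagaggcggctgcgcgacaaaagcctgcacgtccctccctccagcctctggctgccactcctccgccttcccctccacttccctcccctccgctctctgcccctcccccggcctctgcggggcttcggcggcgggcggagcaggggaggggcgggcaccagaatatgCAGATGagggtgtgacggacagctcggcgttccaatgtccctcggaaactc
Etv1: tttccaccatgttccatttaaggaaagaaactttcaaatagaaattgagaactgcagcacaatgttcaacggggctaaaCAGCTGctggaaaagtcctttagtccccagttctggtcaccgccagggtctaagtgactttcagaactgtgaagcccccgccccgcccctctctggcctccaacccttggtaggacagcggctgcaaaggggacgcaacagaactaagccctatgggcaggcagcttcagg

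The Irx1 and Irx2 windows were 72.8% and 71.6% G or C, against 52.4% for Etv1. The letters TGTTTAC (forkhead), TAAT (homeobox core), TGACAG (MEIS), CCGGAA (ETS core), ACANNTGT (Iroquois) and TGCTGA (a MAF half-site) were searched on both strands and occurred in none of these windows. Of all 27457 promoters, 3.25% held the first of these motifs, 56.3% TAAT, 15.6% TGACAG, 13.4% CCGGAA, 6.48% ACANNTGT, which overlaps the E-box, and 15.2% TGCTGA. Irx2 and Irx1 lie on chromosome 1 with 5 annotated genes between them, of which 0 are protein-coding. Id4 had an entry in the promoter table but was too low in islet cells to describe there, and Meis2 is named only.

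Irx1 and Irx2 were highest in alpha cells. Levels are UMI counts per 1000000 UMIs of the class in a rat (CPM). Irx1 stood at 98.3 and 76.4 CPM in the alpha cells of the young rats, at 132 and 54.7 in those of the old rats and at 63.4 in HFHF-old rat 1. In PP cells of the same rats its levels were 9.70, 5.53, 4.13, 2.76 and 3.59 CPM, and in beta cells 0.272, 5.28, 1.75, 1.10 and 0.135. Every alpha value was above every PP and beta value. Irx2 stood at 49.5, 45.3, 58.8, 6.53 and 65.1 CPM in alpha cells, and at 5.70, 6.01, 5.16, 0.984 and 4.49 in PP cells. Its alpha and PP ranges did not overlap, but only because old rat 2, with 6.53, stayed just above the highest PP value. In beta cells Irx2 was listed at 0 in young rat 1 and HFHF-old rat 1 and at 1.15 CPM or less in the others.

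Etv1 was shared by alpha and PP cells. It stood at 445, 272, 505, 321 and 586 CPM in alpha cells and at 893, 387, 669, 428 and 732 in PP cells. The PP value was the higher in 5 of 5 rats, while the ranges over rats overlapped. Beta cells held 14.4, 39.2, 12.6, 17.9 and 12.9 CPM, all far below either class. The highest of these, in young rat 2, came with the highest summed level of 6 macrophage markers in a beta class, 2467 CPM against 203 to 1080 in the other rats. This beta class also had the highest summed alpha markers of the beta classes, 41317 CPM against 413 to 8625. Its PP markers were the highest too, 32928 CPM against 47.4 to 8918. Macrophages, alpha cells and PP cells all carry Etv1 in these data, and the part of each in the beta value was not tested. Assigned at a hormone share of at least 20%, beta cells held 4.34, 26.5, 7.91, 17.0 and 6.14 CPM of Etv1 in the same rats. The summed beta markers of the beta class were lowest in young rat 2, 305102 CPM against 541056 to 711784. At the 5% limit with hormone genes out of the total, beta cells held 49.8, 63.1, 31.7, 60.5 and 28.2 CPM of Etv1. On that scale young rat 2 was just above old rat 2.

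Meis2 was higher in PP than in alpha cells. Its PP levels were 639, 224, 451, 213 and 520 CPM, against 126, 52.7, 72.4, 62.9 and 190 in alpha cells. PP was the higher in 5 of 5 rats and the ranges did not overlap. Beta cells stood at 28.6, 14.9, 23.4, 25.9 and 53.1 CPM, below alpha cells in 5 of 5 rats. In both alpha and beta cells the highest Meis2 level was that of HFHF-old rat 1. Of its 30 alpha cells 26.7% carried another hormone at 5% or more, and its PP markers summed to 37033 CPM in alpha cells, against 1897 to 18625 in the other rats. Without such cells Meis2 in the alpha cells of this rat was at 130 CPM, beside 126 in young rat 1 as counted. The 24 and 11 delta cells of the young rats held 954 and 416 CPM, above the PP cells of the same rats.

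Id4 was barely found in islet cells, so the data go against naming it an alpha or PP factor here. Its alpha levels were 2.73, 1.73, 1.40, 0.890 and 0 CPM, which rest on 17, 11, 4, 6 and 0 UMIs. Its PP levels were 2.85, 0.721, 0, 0.394 and 0 CPM. Of all Id4 UMIs in kept cells, 4.13% were in the 4 islet classes, compared with 94.3% for Irx1, 89.5% for Irx2, 40.4% for Etv1 and 13.3% for Meis2.

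**Figure D1:**
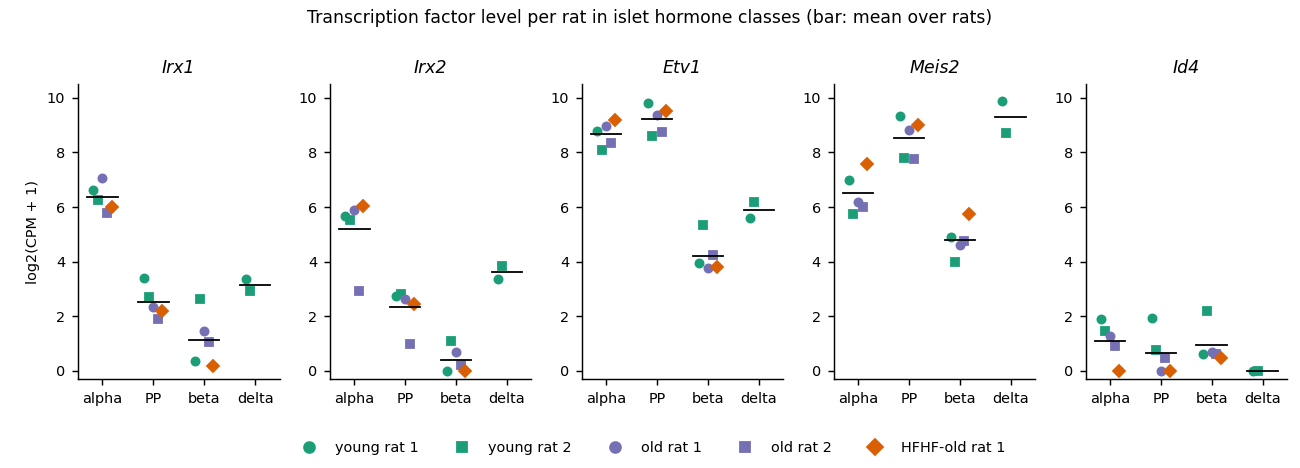
Level of each gene, as log2 of CPM plus 1, in alpha, PP, beta and delta cells; each point is 1 rat with at least 10 cells of the class, colours are the groups and bars are means over rats. Irx1 and Irx2 are high in alpha cells, with old rat 2 alone low for Irx2, Etv1 is high in alpha and PP cells, Meis2 is higher in PP than in alpha cells, and Id4 is near 0.

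The classes were compared within rats on UMI counts summed per rat and class, with edgeR's quasi-likelihood test, the rat as a block and Benjamini-Hochberg adjustment over 12007 genes. A gene was called at an adjusted p under 0.05 and a change over 1.5-fold. The genes were chosen with earlier results of these data known, so the p-values of Etv1 and Meis2 between classes are no independent evidence. Id4 did not pass the filter on low counts. Irx1 and Irx2 passed it through their alpha sums, so that they had to differ, and their fitted differences between classes are given as descriptions, with no p. Between alpha and beta cells 29.3% of all genes were called, 12.9% higher and 16.3% lower in alpha cells. Etv1 was higher in alpha cells by 3.54 ± 0.344 on the log2 scale (SE, edgeR adjusted p = 1.85e-05). Meis2 was higher by 0.81 ± 0.165 (edgeR adjusted p = 0.00271), and this call was lost when the rat was not a block (edgeR adjusted p = 0.0686). The fitted differences of the Iroquois genes were 5.55 ± 0.477 for Irx2 and 4.84 ± 0.490 for Irx1.

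Between alpha and PP cells Meis2 was called and Etv1 was not. Of all genes, 7.53% were called, 3.84% higher in alpha than in PP cells and 3.69% lower. Meis2 was lower in alpha cells, with a log2 fold change of -2.03 ± 0.169 (SE, edgeR adjusted p = 3.7e-05). For Etv1 the change was -0.48 ± 0.307 (edgeR adjusted p = 0.436), which did not pass the test. The fitted differences of Irx1 and Irx2, again descriptions, were 4.14 ± 0.495 and 3.26 ± 0.426, where PP classes held few of their UMIs. The shares of all genes are unsteady: 904 genes were called in this comparison, and 549, 537 and 593 without young rat 1, old rat 1 or old rat 2.

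Etv1 and Meis2 were higher in PP than in beta cells, as they were in alpha cells. Etv1 was higher in PP than in beta cells by 4.03 ± 0.351 (SE, log2, edgeR adjusted p = 1.1e-05) and Meis2 by 2.84 ± 0.175 (edgeR adjusted p = 1.3e-06), where 24.5% of all genes were called, 11.1% higher and 13.5% lower in PP cells. For Irx2 the fitted difference was 2.29 ± 0.525. It is a description too, and 2 of the 5 beta classes held 0 Irx2 UMIs. For Irx1 it was 0.70 ± 0.520. Its difference depended on the rats: it was 1.37 without young rat 2 and 0.24 without young rat 1.

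As a share of the alpha level of the same rat, PP cells held 6.19% ± 2.53 of Irx1 (SD, n = 5 rats), 11.1% ± 3.31 of Irx2, 147% ± 30.8 of Etv1 and 433% ± 137 of Meis2. When cells with another hormone at 5% or more were left out, the Irx1 share was 3.22% and the Irx2 share 8.22%, while Etv1 and Meis2 were at 151% and 509%. For Meis2 the 5 rats ranged from 273% in HFHF-old rat 1 to 623% in old rat 1, and for Etv1 from 125% in HFHF-old rat 1 to 201% in young rat 1.

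**Figure D2:**
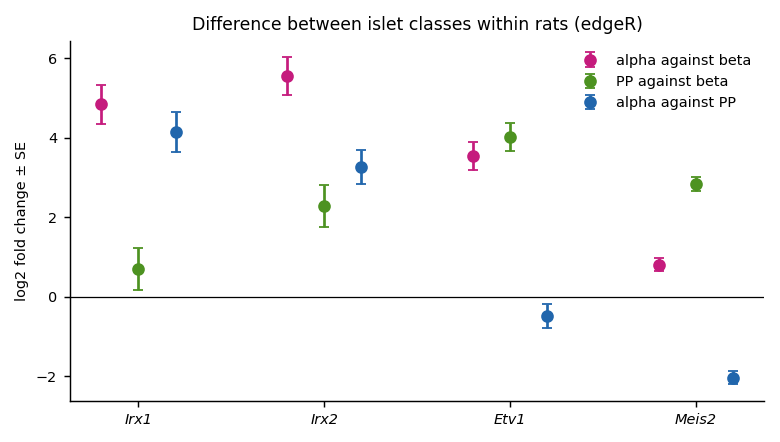
Log2 fold change with its standard error for 3 class comparisons of 4 genes, from edgeR with 5 rats and the rat as a block. The alpha against PP points lie above 0 for Irx1 (4.14) and Irx2 (3.26) and below 0 for Meis2 (-2.03), with Etv1 (-0.48) nearest to 0.

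Gcg mRNA in cells of other classes gave a scale for alpha-cell RNA in other droplets. The Gcg UMIs found in PP cells of a rat, multiplied by the ratio of each factor to Gcg in its alpha cells, sum to 22.1 UMIs of Irx1 over the 5 rats, against 62 measured. For Irx2 this product was 11.1 against 50 UMIs measured. For Etv1 and Meis2 it was 1.46% and 0.532% of what was measured. In beta cells young rat 2 set the sums. There the product was 269 UMIs of Irx1 against 156 measured, and 160 of Irx2 against 34. In the other 4 rats together it was 30.6 against 33 UMIs of Irx1 and 7.41 against 7 of Irx2. For Etv1 in beta cells the product was 65.4% of the measurement over the 5 rats and 28.7% without young rat 2. Single rats ran from 2.01 to 82.9%, the highest in young rat 2. For Meis2 it was 13.8% over the 5 rats and 2.63% without young rat 2, with single rats from 0.201 to 42.1%.

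Alpha and PP cells were also ordered by the share of Gcg among their Gcg, Ppy and Pyy UMIs. In the 920 cells with at most 2% Gcg, Irx1 stood at 1.22 CPM over all rats, and between 0 and 3.04 in single rats. In the 1391 cells with 98% Gcg or more it stood at 90.1. The groups between, with 206, 278, 263 and 468 cells, held 14.8, 35.5, 54.3 and 59.5 CPM. Irx2 went from 2.27 CPM at the PP end to 40.7 at the alpha end, and Meis2 the other way, from 338 to 69.3. Etv1 was at 551 CPM at the PP end and between 302 and 384 in the other groups. These sums pool rats of unlike Etv1 level, and the order did not hold in each rat. In old rat 2 the 89 cells with 2 to 10% Gcg held 507 CPM of Etv1, above the 429 of its PP end. In this rat Meis2 was highest, at 343 CPM, in the 66 cells with 10 to 50% Gcg. Irx2 was highest there, at 11.2 CPM, in the 62 cells with 50 to 90% Gcg. Cells with both hormones can be doublets or carry free RNA, which was not tested per cell.

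**Figure D3:**
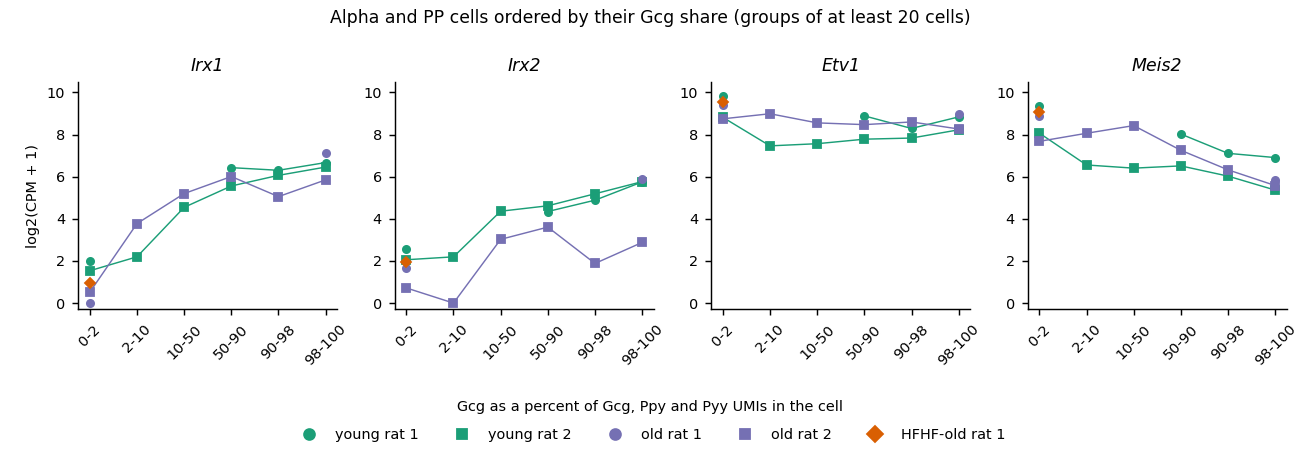
Level (log2 of CPM plus 1) of 4 genes in alpha and PP cells ordered by the percent of Gcg among Gcg, Ppy and Pyy UMIs; each line is 1 rat and groups under 20 cells are not drawn. In each rat drawn at both ends Irx1 and Irx2 are higher and Meis2 is lower at the Gcg end, though not in steady order. Etv1 stays high throughout, and HFHF-old rat 1 is drawn at the PP end only.

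The share of cells with a UMI was computed after thinning each cell to 1000 UMIs outside the hormone genes, which leaves out shallower cells and kept 1524 of 2122 alpha, 916 of 1404 PP and 4235 of 6150 beta cells. Irx1 was found in 8.04 to 20.5% of alpha cells over the 5 rats, 0.30 to 1.59% of PP cells and 0.02 to 0.79% of beta cells. Natural killer (NK) cells, taken as cells that should lack these genes, gave at most 0.03% for Irx1, 0.08% for Irx2, 0.71% for Etv1 and 0.60% for Meis2. Irx2 was found in 0.98 to 9.69% of alpha cells and 0.45 to 1.68% of PP cells, and Etv1 in 25.5 to 51.9% of alpha and 28.6 to 68.1% of PP cells. Meis2 was found in 5.51 to 21.6% of alpha and 14.0 to 52.0% of PP cells. Unthinned, Irx1 was seen in 24.9 to 75.2% of alpha cells and Etv1 in 44.9 to 94.8% of PP cells. The ranges of alpha and PP cells were apart for Irx1 and overlapped for Irx2, Etv1 and Meis2.

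Alpha cells with an Irx2 UMI mostly had an Irx1 UMI too, with 136 of 194 and 119 of 150 in the young rats, 67 of 75 and 27 of 42 in the old rats and 10 of 16 in HFHF-old rat 1. In alpha cells as a whole 274 of 550, 218 of 597, 97 of 129, 203 of 816 and 17 of 30 had an Irx1 UMI. Counts per cell were sparse, and a deeper cell more readily shows both genes of a pair. The overlap expected for unlinked genes was not computed. Both an Etv1 and a Meis2 UMI were found in 119 of 134 and 126 of 457 PP cells of the young rats, 37 of 82 and 238 of 668 of the old rats and 51 of 63 of HFHF-old rat 1. Singly, Etv1 was found in 127, 205, 42, 371 and 55 of these PP cells and Meis2 in 122, 146, 38, 293 and 52. In alpha cells of the same rats they were found together in 211 of 550, 105 of 597, 52 of 129, 127 of 816 and 19 of 30. Singly, Etv1 was found there in 415, 299, 107, 444 and 28 cells and Meis2 in 236, 124, 52, 173 and 20. Among the 668 PP cells of old rat 2, 9 had an Irx1 UMI, 5 an Irx2 UMI and 0 both.

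Across the other pancreatic cell classes the 5 genes went separate ways. Irx1 and Irx2 had a median over rats of at most 0.570 CPM in every class outside the islet. Within the islet, the 24 and 11 delta cells of the young rats held 6.60 to 9.41 CPM of Irx1 and 9.41 to 13.2 of Irx2. These rest on few UMIs, and Irx2 was above the 5.70 and 6.01 CPM in PP cells of those rats. Low levels of both genes were thus not particular to PP cells. Etv1 stood at 47.1 to 72.6 CPM in delta cells, above every beta value. Outside the islet Etv1 was highest in macrophages, with a median of 150 CPM (lowest rat 91.7, highest 225, 6 rats), followed by ductal cells with 84.7. Macrophages were below alpha and PP cells in all rats, and their range overlapped no islet class range. Meis2 in fibroblasts (median 435), ductal cells (416) and endothelial cells (301) overlapped in range with PP cells (451), and was lower in macrophages (11.7) and NK cells (4.71). Id4 was led by smooth muscle cells and pericytes, with a median of 212 CPM and a range of 37.5 to 283 over 4 rats. Ductal cells (147), endothelial cells (53.9) and fibroblasts (21.9) followed, and neighbours among these 4 overlapped in range. Mesothelial cells, from 1 library with 11 cells, were at 26.0 CPM.

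**Figure D4:**
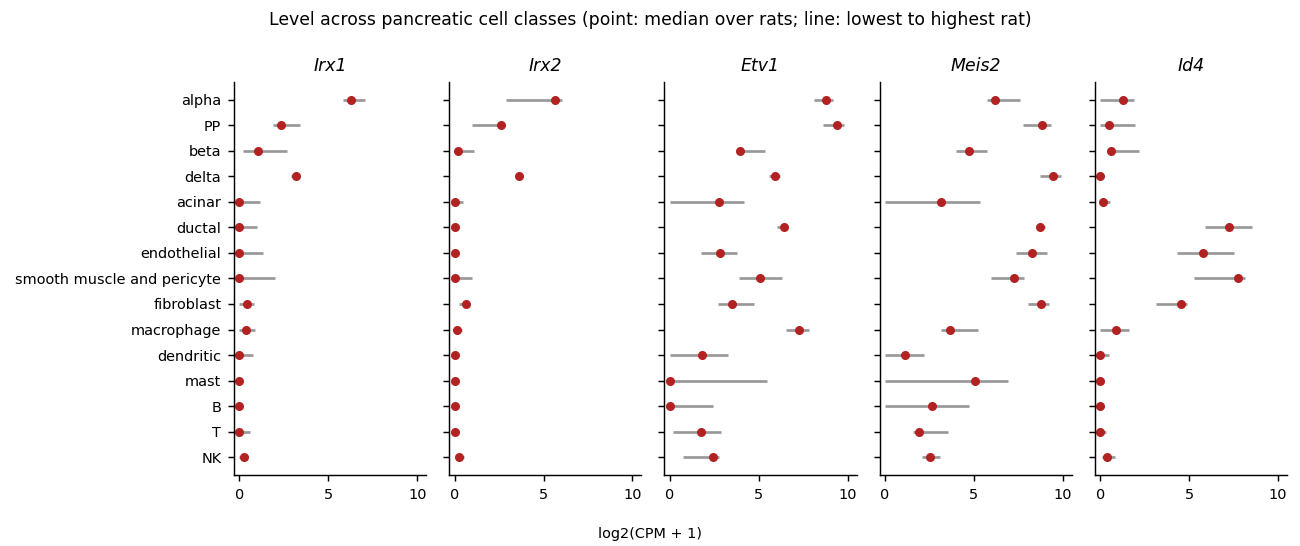
Level of each gene (log2 of CPM plus 1) in 15 cell classes; points are medians over rats and lines run from the lowest to the highest rat with at least 10 cells. Irx1 and Irx2 stand out in alpha cells, Etv1 in alpha cells, PP cells and macrophages, Meis2 in PP, delta, stromal and ductal cells, and Id4 in stromal and ductal cells.

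The study compared old with young rats and HFHF-old with old rats, which asks how age and diet changed these cells. No member passed the edgeR test in any group comparison. In alpha cells 0 of 12 tests of Irx1, Irx2, Etv1 and Meis2 were called and 0 had an unadjusted p under 0.05 (lowest adjusted p = 0.497), where 0.015% of all genes were called for old against young, 0.0225% with HFHF-old against old and 0.0601% with HFHF-old against young. In PP cells 0 of 12 were called and 0 had an unadjusted p under 0.05, with 0.0182%, 0.0274% and 0.0456% of all genes called in the same order. In beta cells 0 of 9 were called and 1 had an unadjusted p under 0.05, with 0% of all genes called. DESeq2 called 0 members in these comparisons too. With 2, 2 and 1 rats the standard errors of these 4 genes in alpha and PP cells ran from 0.34 to 1.04 on the log2 scale.

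In alpha cells Irx1 differed between HFHF-old and old rats by -1.20 ± 0.530 (SE, log2, edgeR adjusted p = 0.497), Meis2 by 0.82 ± 0.413 (edgeR adjusted p = 0.506) and Etv1 by -0.16 ± 0.492 (edgeR adjusted p = 0.910). The Meis2 difference was 0.35 without cells carrying another hormone (edgeR adjusted p = 0.771). By CPM, Etv1 in alpha cells of HFHF-old rat 1 (586) was above both old rats (505 and 321), unlike the sign of the fit. With hormone genes out of the total it was 799, between 889 and 584. Between old and young rats Irx1 differed by 0.46 ± 0.395, Etv1 by 0.61 ± 0.398 and Meis2 by 0.06 ± 0.340, all at an edgeR adjusted p of 0.999. In PP cells the old against young differences were -0.96 ± 0.591 for Irx1, -1.24 ± 0.776 for Irx2, -0.04 ± 0.497 for Etv1 and -0.21 ± 0.505 for Meis2. HFHF-old against old gave -0.33 ± 0.851, 0.56 ± 1.04, 0.01 ± 0.608 and 0.28 ± 0.612 in the same order. A test of whether PP and alpha cells responded differently called 0 of the 4 genes and 0 of 12007 in each of the 3 group comparisons.

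The low Irx2 level in alpha cells of the old group came from 1 rat. Old rat 2 had 44 Irx2 UMIs in 816 alpha cells, where 42 cells or 5.15% had one (95% Wilson interval 3.83 to 6.88%, counting error only), against 25.1 to 58.1% in the other rats. Its Irx1 level, 54.7 CPM, was the lowest of the 5 but close to the 63.4 of HFHF-old rat 1. With hormone genes out of the total, HFHF-old rat 1 was the lower, at 86.4 CPM against 99.6 in old rat 2. Irx2 was 11.9% of Irx1 in this rat and 44.4 to 103% in the others. The median depth of its alpha cells was 2560.5 UMIs, against 4540 to 23174 in the others. Thinned to 1000 UMIs per cell, Irx2 was found in 0.98% of its alpha cells, against 4.93 to 9.69% in the others. The old against young difference of Irx2 was -0.24 ± 0.721 with both old rats, -2.41 without old rat 1 (edgeR adjusted p = 0.0134) and 0.61 without old rat 2 (edgeR adjusted p = 1.000). With an old rat left out, the old and HFHF-old groups are 1 rat each, and the spread is that of the 2 young rats, assumed for the others.

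**Figure D5:**
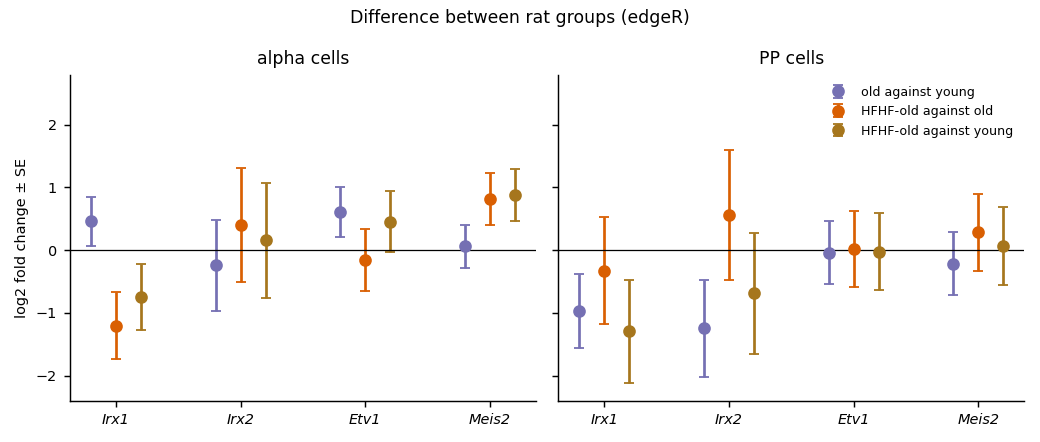
Log2 fold change with its standard error between rat groups in alpha cells (left) and PP cells (right) for 4 genes, from edgeR with 2 young, 2 old and 1 HFHF-old rats. None passes the test, and Irx1 in alpha cells, HFHF-old against old (-1.20), has the lowest p among the alpha and PP values.

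Related factors gave the setting. Of the 4 other Iroquois genes listed (Irx3, Irx4, Irx5 and Irx6), none passed the filter, and 0 UMIs of any were found in the 2122 alpha and 1404 PP cells, which allows up to 0.132 and 0.229 CPM over the class. Of 3 other Ets variant factors, 2 were tested. Etv5 was lower in PP than in beta cells (log2 -1.39), and Etv6 was not called in any class comparison.

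Of 8 MEIS and PBX homeobox genes, which include the DNA-binding partners of Meis2, 3 were called higher and 1 lower in PP than in beta cells, with a median log2 change of 0.09 against -0.05 over all genes, of which 11.1% were called higher and 13.5% lower. Meis1 was higher in alpha (1.85) and in PP cells (1.73) than in beta cells, and did not differ by call between them (0.13). Pbx3 was lower in alpha than in PP cells (-1.81), as Meis2 was, and also lower in alpha than in beta cells (-0.71), where Meis2 was higher. Between alpha and beta cells 2 of the 8 were higher in alpha cells and 1 lower, against 12.9% and 16.3% of all genes. Between alpha and PP cells 2 of the 8 were higher in alpha cells and 1 lower, against 3.84% and 3.69% of all genes.

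Of 6 genes for other Id factors and for E proteins, which are the partners of Id factors, 0 were higher in alpha or PP than in beta cells, against 12.9% and 11.1% of all genes. In alpha cells 1 of 6 was lower, Id2 (-1.02), and in PP cells 1 of 6, against 16.3% and 13.5% of all genes. Without old rat 1 or young rat 2, 0 of 6 were lower in either comparison, and without old rat 2 0 of 6 were lower in PP cells. Tcf12 and Tcf4, which encode E proteins, were called in no comparison.

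Of 4 listed alpha-cell regulators 3 were tested. All 3 were higher in alpha than in beta cells, 2 were higher in alpha than in PP cells, and in PP against beta cells 2 were higher and 1 lower. The shares of all genes called higher were 12.9%, 3.84% and 11.1% in these comparisons. A gene can pass the filter through the class where it is high, as Pou3f4 did, so nothing is read from these counts. Pou3f4 stood at 20.6 to 77.1 CPM in alpha cells, 8.56 to 33.2 in PP cells and 0 to 0.610 in beta cells over the 5 rats.

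Of 5 listed beta-cell regulators Pdx1 and Nkx6-1 passed the filter, through the beta sums where they are high, and are described by their levels with no test. Pdx1 stood at 20.6 to 169 CPM in beta cells, 0 to 3.86 in alpha cells and 10.8 to 15.5 in PP cells. Nkx6-1 stood at 7.76 to 87.0 CPM in beta cells, 0 to 0.742 in alpha cells and 0.898 to 4.56 in PP cells. The delta-cell regulator Hhex was lower in alpha (-1.10) and in PP cells (-1.83) than in beta cells. Of 11 pan-islet regulators 9 were tested, and 3 were called higher in alpha than in PP cells with 0 lower. The shares of all genes were 3.84% and 3.69%. Rfx6 is among the 3 and was low in PP cells, so it can pass the filter through the classes where it is high. Nothing is therefore read from this count. St18 (0.95) and Isl1 (0.96), which is needed for islet cell maturation, were called too, and Neurod1 (0.89) did not pass. Rfx6 was chosen after its values were seen, and its fitted differences are given as descriptions. They were 4.48 for alpha against PP cells and -4.16 for PP against beta cells. Over all lists 9 genes were called between alpha and PP cells, with Rfx6, Pou3f4 and Pdx1 counted among them. The number was 3 without young rat 1 or old rat 1 and 4 without old rat 2.

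The genes with the pattern most like each member were sought over the 17 sums of alpha, PP, beta and delta cells, among 9338 genes. For Irx1 they were Sgce (Pearson r = 0.94), the locus AABR07020952.1 (0.94) and Eif4e3 (0.93), and for Irx2 Plekhh2 (0.93), Irx1 itself (0.91) and Pabpn1 (0.91). For Etv1 they included Dclk3 (0.96) and Slc25a33 (0.96). Dclk3 averaged 37.4 CPM in alpha, 49.7 in PP and 1.66 in beta cells. For Meis2 they were Nmnat2 (0.95), Gnai1 (0.94) and Ros1 (0.93), all of them also highest in delta cells. For Id4 they were Sparcl1 (0.88), Lpl (0.85) and Rps28 (0.85), on a base of few UMIs. Sums of 1 rat share a library and its depth, so these values describe likeness and carry no test.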

How the data were processed

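Single-cell 3′ libraries (Chromium v3.1) of 6 male Wistar rats were read from the deposited matrices of raw UMI counts. The authors made these counts with Cell Ranger (5.0.0 in the file headers; the methods give another version) on Rnor_6.0, per the submitters' processing notes. Read depth behind a UMI count was not used here, and the counting of introns is not given in the sources used here. All 78024 barcodes were filtered by the study's limits: at least 200 genes, at most 25% mitochondrial UMIs and not in the top 1% of gene number. This left 75201 cells, a number below that of the study. No doublet caller was run. The extract protocol accepted suspensions with some doublets.

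Islet classes were set by hormone share, which uses none of the 5 genes. Other cells took the acinar class at 20% of UMIs in 7 acinar markers, or else the class with at least 3 markers and a lead of 2. UMI counts were summed per rat and class with at least 10 cells. A level is UMI counts per 1000000 UMIs in the sum (CPM). Hormone mRNA takes a larger share in beta cells, and its share also differs between rats. Fold changes were therefore taken on TMM-scaled counts and can be smaller than ratios of levels. A difference from beta cells can also change sign, as for Pbx3 in alpha cells, or grow when negative, as for Hhex. A difference between groups can change sign too, as for Etv1 in alpha cells of HFHF-old against old rats. Tests used edgeR 4.0.16 quasi-likelihood fits after filterByExpr, in R 4.3.3. Alternatives were DESeq2 1.42.0, RLE scaling, no hormone genes, no filter on low counts, hormone limits of 2 and 20%, no cells with another hormone, PP by Ppy alone, no barcode filter, at least 30 cells, and each rat left out. Replicate numbers were taken as names of rats, as the labels give no shared processing. The fits were also run on simulated counts with known changes. These were drawn without rat effects, free RNA or doublets, so nothing about the real comparisons is read from them.

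The 5 genes and all gene lists were chosen with earlier results of these data known. Named genes were the members, at most 3 genes per list with the highest mean level in alpha and PP sums, and the 3 closest correlates per member. The rats are separate animals, and intervals and floors (3 UMIs) cover counting error only. Listed genes not matched in the matrices included Cd79a, Foxd3, G6pc2, Insm1, Muc16 and Pecam1. Some genes that the rule selects are not reported here.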

Additional observations from a re-analysis of the deposited data

How the results depend on the processing

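The 12 class differences of Irx1, Irx2, Etv1 and Meis2 kept their direction under every alternative run, and of the calls of Etv1 and Meis2 the Meis2 difference between alpha and beta cells alone was lost (0.80 on the log2 scale with no rat block). Genes called without the rat block numbered 2182, 1701 and 460 for alpha against beta, PP against beta and alpha against PP, and genes of the lists 9 and 4 for the first and the last. Leaving out 1 rat gave 537 to 994 genes called between alpha and PP cells, and 3 to 13 genes of the lists.

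The labels do not say whether rats with the same replicate number were processed together. Same-numbered young and old rats deviated together in alpha (correlation over genes 0.173) and PP cells (0.262) and not in beta cells (-0.305). A replicate block called 0 members, and over all genes 30, 4 and 11 in alpha cells for old against young, HFHF-old against old and HFHF-old against young, with 0 in PP and beta cells. Crossing the numbers in beta cells, chosen after seeing the data, called 4 to 8 genes. In the group comparisons at most 8 genes were called in any class; DESeq2 called up to 34, the 20% hormone limit up to 14, no barcode filter up to 27, and leaving out a rat up to 218 in alpha and 363 in PP cells.

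Group differences of members changed sign easily. Leaving out 1 rat called 0 to 1 members in alpha cells in each comparison with the old group, old against young or HFHF-old, namely Irx2 without old rat 1, where the spread is that of the 2 young rats. It moved the old against young difference in alpha cells from -0.21 to 0.92 for Irx1, from -2.41 to 0.61 for Irx2 and from -0.26 to 0.48 for Meis2, and in PP cells from -0.40 to 0.44 for Etv1 and from -0.68 to 0.47 for Meis2. HFHF-old against old ranged from -0.43 to 2.56 for Irx2 and from -0.37 to 0.11 for Etv1 in alpha cells, and from -0.061 to 0.084 for Etv1 in PP cells. Irx1 in alpha cells kept its sign there but ranged from -1.64 to -0.54. Irx1 in PP cells ranged from -1.37 to -0.32 for HFHF-old against old over the alternatives with no rat left out. Etv1 in alpha cells was at 0.13 with the 20% hormone limit. Etv1 in PP cells, old against young, was at 0.071 with no barcode filter and 0.022 with the replicate block. For HFHF-old against old it was at -0.015 with RLE scaling and with DESeq2, -0.42 with no barcode filter, -0.019 with at least 3 islet markers, a setting chosen after seeing the data, and -0.24 with the replicate block, where Meis2 was at -0.13. The causes were not tested.

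Without cells of more than 1 hormone the PP share of the alpha level was 3.22% for Irx1. The Gcg product then came to 13.6% of the measured Irx1, 5.88% of the Irx2, 0.249% of the Etv1 and 0.0737% of the Meis2 UMIs in PP cells. That setting takes out every PP cell with 5% Gcg or more, so a lower product is set by the rule. In beta cells, again without cells of more than 1 hormone, the product was 141% of the measured Irx1, 393% of Irx2, 36.1% of Etv1 and 3.25% of Meis2 UMIs. With such cells kept and young rat 2 left out, chosen after seeing the data, it was 92.8% of Irx1, 106% of Irx2 and 28.7% of Etv1. A product above the measured count cannot be an amount of RNA found, so no amount is read from the scale in beta cells, and none in PP cells. As counted, the mean share of alpha and PP cells with a UMI was 48.6 and 4.18% for Irx1, 35.4 and 4.80% for Irx2, and 38.4 and 59.1% for Meis2, with 71.2 and 66.7% for Etv1. Thinned to 2000 UMIs it was 21.8 and 2.02%, 11.7 and 1.62%, and 19.9 and 53.4%, with 63.1 and 73.5% for Etv1. Requiring 30 cells per class changed no alpha, PP or beta sum; the delta sums, with 24 and 11 cells, would be lost. With no filter on low counts the median over all genes moved to -0.14 for alpha against beta and -0.20 for PP against beta.

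Depth limits Irx1 and Irx2 in PP cells, which rest on 62 and 50 UMIs, and Id4 in every islet class. The HFHF-old group is 1 rat in islet cells, so its spread is assumed from the others, and the diet cannot be told apart from that rat.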
